A study of Mus musculus with 9 samples.

Results

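Cdc42 and the proteins that act with it to shape the cell are described here through 10 genes. They are the 5 Cdc42 effector proteins (Cdc42ep1 to Cdc42ep5), the Cdc42 effector Baiap2, and the small GTPases Cdc42, Rhoj, Rac1 and Rhoa. The genes were chosen by symbol, with earlier results of these data known. All 10 of 10 were found among the 24321 genes of the expression table. The table holds 9 RNA-seq libraries of meningeal lymphatic endothelial cells (MLECs), with 3 libraries from control mice, 3 from mice with GL261 glioma and 3 from mice with B16 melanoma. The study compared these groups to learn how the transcriptome of MLECs differs when a brain tumor is present.

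All mice were 10-week-old males according to the labels, and the methods name C57BL/6, the strain with which both tumor lines are syngeneic. Control mice received PBS alone. The GL261 and B16 groups were injected at 7 to 8 weeks of age. According to the labels they received 100000 tumor cells in 5 µL and were killed about 3 weeks (GL261) or 2 weeks (B16) later. By these times, the tumor and the time since injection cannot be told apart. The labels name the cisterna magna as the route, whereas the methods describe an injection under the dura. For that injection the methods give a smaller volume and fewer cells, in numbers that differ between the tumors. The results of the study give the same time since injection for both tumors. Each library came from meninges pooled from 6 mice and held only 10 sorted CD31+ CD45- cells, gated on LYVE-1 in the labels and on PDPN in the results of the study. In such pools, fewer cells of a type and less RNA per cell cannot be told apart.

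Cdc42 is a small GTPase that switches between a GTP-bound and a GDP-bound state and sets cell polarity and filopodia. Rac1 is known for sheet-like protrusions and Rhoa for stress fibers and contraction, while Rhoj is a Cdc42-like GTPase found mainly in endothelium. The Cdc42 effector proteins, also called Borg proteins, bind GTP-loaded Cdc42 through a short CRIB motif and organize septins and actin, and Baiap2, also called IRSp53, binds Cdc42 and bends membrane through its I-BAR domain.

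The 5 effector proteins are separate genes that share the CRIB motif, so the coding bases of the motif are shown to let a reader compare them. The windows were read from mm9 within 1 exon each, and they lie at chr15:78677898-78677942 (plus strand, Cdc42ep1), chr19:5918544-5918588 (minus strand, Cdc42ep2), chr17:79734695-79734739 (minus strand, Cdc42ep3), chr11:113590755-113590799 (minus strand, Cdc42ep4) and chr7:4103279-4103323 (minus strand, Cdc42ep5). Capitals mark the 27 of 45 bases that are identical in all 5 genes.
Cdc42ep1: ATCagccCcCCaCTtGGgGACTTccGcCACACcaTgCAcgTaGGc
Cdc42ep2: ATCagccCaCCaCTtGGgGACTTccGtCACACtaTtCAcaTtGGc
Cdc42ep3: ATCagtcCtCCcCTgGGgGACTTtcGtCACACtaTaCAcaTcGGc
Cdc42ep4: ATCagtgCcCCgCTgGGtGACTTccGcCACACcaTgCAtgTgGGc
Cdc42ep5: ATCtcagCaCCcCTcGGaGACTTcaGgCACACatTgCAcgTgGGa
Cdc42ep1 and Cdc42ep2 were the most alike in this window, with 39 of 45 bases the same, and Cdc42ep3 and Cdc42ep5 the least alike, with 29. Over the whole transcripts, the longest run shared exactly by any pair of the 10 genes was 20 bases, against reads of 150 bases. Rhoa is the exception among the 10, since 2 other loci match its transcript closely. Gm12844 matched over 582 bases at 98.1% identity and Gm13578 over 580 bases at 95.5%, neither is listed in the expression table, and the level of Rhoa is therefore uncertain.

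Expression is given as FPKM, the fragments mapped to a gene relative to transcript length and library size, as computed by the authors, which allows levels of different genes to be compared within a library. Read counts were not used here, so that no counting error can be given for a single value. The control libraries detected fewer genes (7303 to 8688 above 0) than the tumor-associated libraries (8736 to 10852), and detection and tumor status cannot be told apart by design. Of the 10 genes, 2 were listed at 0 in Control 1, 1 in Control 2 and 4 in Control 3, and 0 in any tumor-associated library. All 12 lymphatic markers were above 0 in all 9 libraries, which includes values near 0 such as 0.0709 FPKM for Ccl21b in B16 1. Together the 12 markers summed to 13740 to 17390 FPKM in control libraries and only 1149 to 7129 FPKM after tumor injection. Ccl21c, Lyve1 and Ccl21b were the most abundant. Differences below are in log2(FPKM + 1), a scale that makes changes of weakly expressed genes look smaller, and were tested with limma on 9955 genes.

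Among the 10 genes, 4 rose in tumor-associated MLECs (GL261 and B16 together, n = 6) against control MLECs (n = 3): Cdc42ep3, Cdc42ep2, Cdc42ep4 and Baiap2. In this comparison 3.93% of all genes tested passed the threshold, and 2.9% passed it as higher. All 10 genes passed the filter on low values, and 0 of the 10 passed the test as lower, against 1.02% of all genes. A ROC power above 0.4, computed here on all genes tested without Seurat, gives no p, and it was reached as higher by 8 of the 10 genes and by 31.0% of all genes tested. The median log2 difference of the 10 genes was 2.07, against 0.20 over all genes tested. The 10 genes were chosen with earlier results of these data known, so these counts and medians are a description and not independent of the choice. The 6 effectors had differences of 1.18 or more, and the 4 GTPases had differences of 0.92 or less. Cdc42ep2, Cdc42ep3, Cdc42ep4, Cdc42ep5 and Baiap2 also stand in the upregulated list that the study drew from the same libraries, so that their direction here is not independent evidence.

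**Figure D1:**
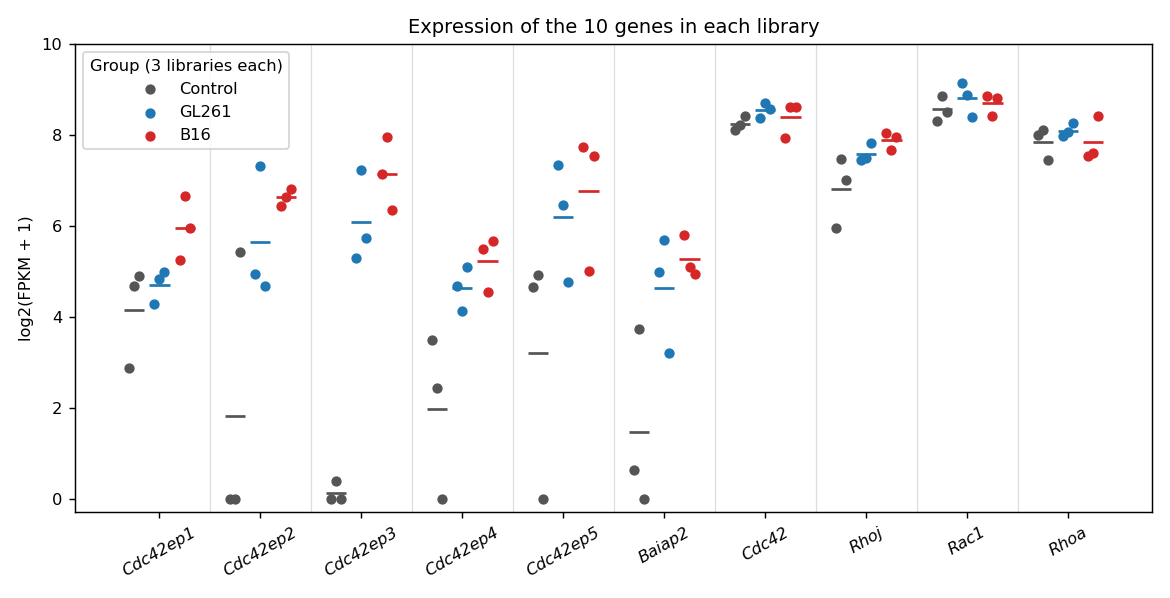
FPKM of the 10 genes in each of the 9 libraries, on a log2(FPKM + 1) axis, with points for single libraries, short lines for group means, and gray, blue and red for Control, GL261 and B16. Cdc42ep3 lies at or below 0.303 FPKM in the 3 control libraries and at or above 38.0 in the 6 tumor-associated ones, while Cdc42, Rac1 and Rhoa lie at or above 174 in all 9.

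Cdc42ep3, the family member with the largest difference, was close to undetected in control MLECs. It was listed at 0 in Control 1 and Control 3 and had 0.303 FPKM in Control 2. It had 38.0, 148 and 52.5 FPKM in GL261 1, 2 and 3, and 140.5, 247 and 80.2 FPKM in B16 1, 2 and 3. Every tumor-associated library was above every control library. Cdc42ep3 ranked at percentile 15.8 of the tested genes in the median control library and at 90.1 as the median of the tumor-associated ones. The control rank is that of Control 1, where all tested genes listed at 0 share it. Control MLECs averaged 0.101 ± 0.175 FPKM (SD, n = 3), and tumor-associated MLECs averaged 118 ± 77.8 FPKM (SD, n = 6). Cdc42ep3 rose by 6.49 on the log2 scale (SE 0.62, 95% interval 5.14 to 7.83, limma adjusted p = 0.000137). It passed the threshold in all 18 alternative analyses, with log2 differences of 6.22 to 6.75 when each library was left out in turn. Its first 393 bases overlap Gm17315, a lincRNA on the opposite strand that is not listed in the table.

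Cdc42ep2 was listed at 0 in Control 1 and Control 2 and had 42.1 FPKM in Control 3. It had 29.8, 159 and 24.6 FPKM in GL261 1, 2 and 3, and 86.1, 98.6 and 112 FPKM in B16 1, 2 and 3. The groups overlapped, because GL261 1 and GL261 3 were below Control 3, and the other 4 tumor-associated libraries were above all controls. Cdc42ep2 rose by 4.33 on the log2 scale (SE 1.07, 95% interval 2.01 to 6.65, limma adjusted p = 0.0411). This call was lost when any single library other than Control 3 or GL261 3 was left out (limma adjusted p 0.0558 to 0.148), and without Control 3 the difference was 6.14 (limma adjusted p = 0.00112). With the number of detected genes as a covariate the difference was 3.99 and the adjusted p 0.461.

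Cdc42ep4 had 10.3 and 4.42 FPKM in Control 1 and Control 2 and was listed at 0 in Control 3. It had 24.5, 16.4 and 33.3 FPKM in GL261 1, 2 and 3, and 44.2, 22.2 and 49.7 FPKM in B16 1, 2 and 3. The groups did not overlap, and Cdc42ep4 was the second of 2 genes among the 10 that were higher without overlap, against 6.08% of all tested genes that were higher in this way. Cdc42ep4 rose by 2.95 on the log2 scale (SE 0.74, 95% interval 1.35 to 4.55, limma adjusted p = 0.0432). The call held without Control 1 (3.71, limma adjusted p = 0.0210) and was lost when any other single library was left out (limma adjusted p 0.0592 to 0.109), with the lowest difference, 1.96, without Control 3. With the number of detected genes as a covariate the difference was 4.03 and the adjusted p 0.223.

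Cdc42ep5, the shortest of the 5 proteins with 150 codons, had 24.1 and 29.4 FPKM in Control 1 and Control 2 and was listed at 0 in Control 3. It had 161, 87.1 and 26.1 FPKM in GL261 1, 2 and 3, and 212, 31.2 and 183.5 FPKM in B16 1, 2 and 3. Only GL261 3 fell within the control range, and B16 2 was just above it. The log2 difference of 3.28 (SE 1.03, 95% interval 1.06 to 5.50) did not pass the threshold (limma adjusted p = 0.0998), and it was 1.68 without Control 3.

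Cdc42ep1, the longest of the family with 409 codons, had 6.32, 24.4 and 28.6 FPKM in Control 1, 2 and 3. It had 18.3, 27.5 and 30.6 FPKM in GL261 1, 2 and 3, and 37.2, 99.6 and 60.9 FPKM in B16 1, 2 and 3. The GL261 libraries overlapped the controls and the B16 libraries were above them. The log2 difference over both tumors was 1.18 (SE 0.62, 95% interval -0.17 to 2.53) and did not pass the threshold (limma adjusted p = 0.330). Without Control 1 it was 0.55.

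Baiap2 had 0.547 and 12.3 FPKM in Control 1 and Control 2 and was listed at 0 in Control 3. It had 30.7, 50.6 and 8.16 FPKM in GL261 1, 2 and 3, and 54.7, 33.1 and 29.5 FPKM in B16 1, 2 and 3. GL261 3 lay below Control 2, and the other 5 tumor-associated libraries lay above all controls. Baiap2 rose by 3.49 on the log2 scale (SE 0.85, 95% interval 1.65 to 5.34, limma adjusted p = 0.0383). The call was lost when any single library other than Control 2 or GL261 3 was left out (limma adjusted p 0.0669 to 0.122), and without Control 2 the difference was 4.63 (limma adjusted p = 0.00511). With the number of detected genes as a covariate the difference was 2.47 and the adjusted p 0.555.

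**Figure D2:**
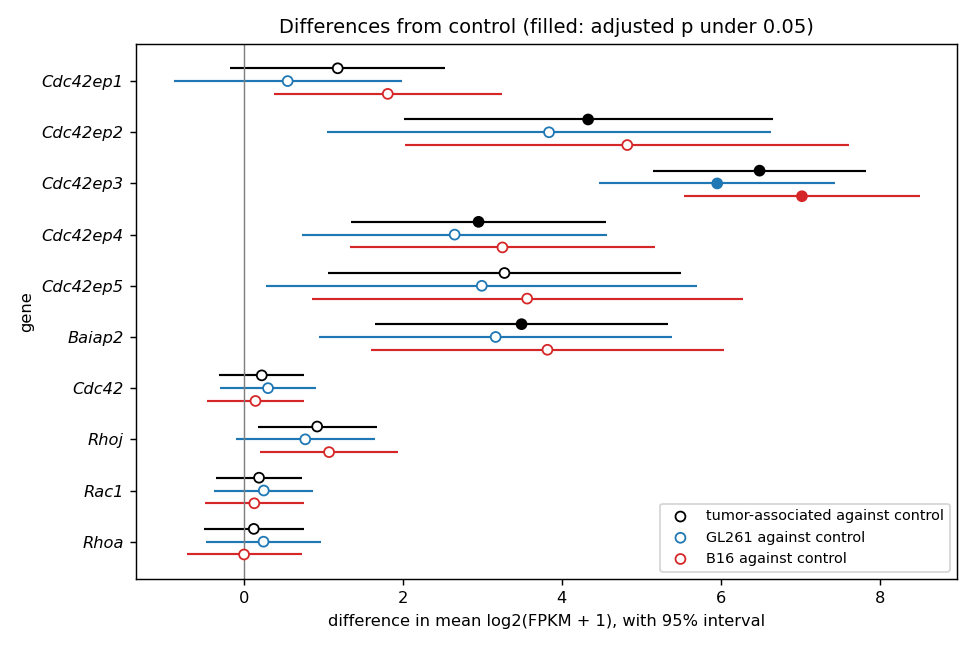
Log2 differences of the 10 genes on the log2(FPKM + 1) scale for tumor-associated, GL261 and B16 MLECs against control, with points for the limma estimate (filled where the adjusted p is under 0.05) and bars for the 95% interval. The interval of Cdc42ep3 starts at 5.14 for both tumors together, and the intervals of Cdc42, Rac1 and Rhoa include 0.

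The GTPases themselves were abundant in every library. Cdc42 had 274, 296 and 339 FPKM in Control 1, 2 and 3, 331, 416 and 377 in GL261 1, 2 and 3, and 245, 394 and 388 in B16 1, 2 and 3. B16 1 was the lowest of all 9 libraries, and the groups overlapped. The log2 difference was 0.23 (95% interval -0.31 to 0.76, limma adjusted p = 0.668), an interval that reaches from 0.808-fold to 1.69-fold.

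Rac1 had 314, 465.5 and 364 FPKM in Control 1, 2 and 3, 565, 471 and 338 in GL261 1, 2 and 3, and 464, 339 and 445.5 in B16 1, 2 and 3. Only GL261 1 and GL261 2 were above all controls. The log2 difference was 0.19 (95% interval -0.35 to 0.73, limma adjusted p = 0.733).

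Rhoa had 254, 274 and 174 FPKM in Control 1, 2 and 3, 252, 265 and 304 in GL261 1, 2 and 3, and 185, 192 and 342 in B16 1, 2 and 3. The groups overlapped, with GL261 3 and B16 3 above all controls. The log2 difference was 0.13 (95% interval -0.50 to 0.75, limma adjusted p = 0.862). For Cdc42, Rac1 and Rhoa the sign of the difference flipped to negative when FPKM were rescaled to an equal sum or quantile normalized, which lowered the median of all genes by 0.147 and by 0.175 on the log2 scale.

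Rhoj had 60.8, 177 and 128 FPKM in Control 1, 2 and 3, 173, 178.5 and 225 in GL261 1, 2 and 3, and 260.5, 201 and 248 in B16 1, 2 and 3. GL261 1 was below Control 2, and the other 5 tumor-associated libraries were above all controls. The log2 difference of 0.92 (SE 0.35, 95% interval 0.17 to 1.67) did not pass the threshold after adjustment (limma adjusted p = 0.170), and it was 0.49 without Control 1. Of the 10 genes, 6 had an unadjusted p under 0.05, against 19.0% of all genes tested, and Rhoj was not among the 4 that passed after adjustment.

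Transcripts of the effector protein genes were few beside those of Cdc42 in control MLECs. Summed over Cdc42ep1 to Cdc42ep5, FPKM came to 40.7, 58.6 and 70.7 in Control 1, 2 and 3, 271, 438 and 167 in GL261 1, 2 and 3, and 520, 499 and 486 in B16 1, 2 and 3. All 6 tumor-associated sums were above the controls, and the 3 B16 sums were above the 3 GL261 sums. Per FPKM of Cdc42, control MLECs had an effector sum of 0.185 ± 0.0319 (SD, n = 3), GL261 MLECs one of 0.772 ± 0.309 (SD, n = 3) and B16 MLECs one of 1.55 ± 0.498 (SD, n = 3). These sums are given as a description, without a test.

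The make-up of the family also varied from library to library. Cdc42ep5 led in Control 1 and Control 2 and Cdc42ep2 in Control 3. In the tumor-associated libraries Cdc42ep5 led in GL261 1, B16 1 and B16 3, Cdc42ep2 in GL261 2, and Cdc42ep3 in GL261 3 and B16 2. Cdc42ep3 made up 0%, 0.517% and 0% of the family sum in Control 1, 2 and 3 and between 14.0% and 49.6% with tumor, with a mean of 28.7% ± 12.9 (SD, n = 6). Cdc42ep1 made up 15.5% to 41.7% in control and 6.27% to 20.0% in tumor-associated MLECs.

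**Figure D3:**
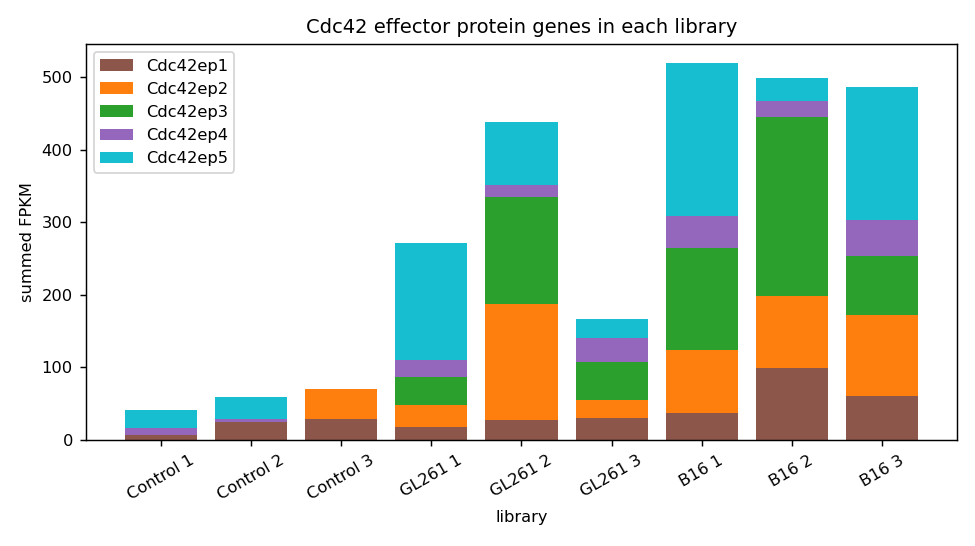
FPKM of Cdc42ep1 to Cdc42ep5 stacked in each library, so that the height of a bar is the family sum. The control bars reach 40.7 to 70.7 FPKM and the tumor-associated bars 167 to 520, with Cdc42ep3 visible only in the tumor-associated libraries.

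Each tumor was then set against the same 3 control libraries, which both comparisons share. In GL261 MLECs only Cdc42ep3 passed the threshold, with a log2 difference of 5.95 (SE 0.68, limma adjusted p = 0.00103), where 3.49% of all genes passed. In B16 MLECs again only Cdc42ep3 passed, with 7.02 (SE 0.68, limma adjusted p = 0.000536), where 2.11% of all genes passed. With the number of detected genes as a covariate, the difference in GL261 MLECs was 5.78 (SE 1.35) and no longer passed the threshold (limma adjusted p = 0.314). A second gene passed when a control was left out. For GL261 it was Baiap2 without Control 2 (4.31) and Cdc42ep2 without Control 3 (5.65), and for B16 it was Cdc42ep4 without Control 1 (4.01), Baiap2 without Control 2 (4.96) and Cdc42ep2 without Control 3 (6.63). Without overlap of the libraries, 2 of the 10 genes were higher in GL261 than in control, against 13.7% of all genes, and 7 of the 10 were higher in B16, against 10.2%. An unadjusted p under 0.05 was reached by 5 of the 10 genes in GL261, against 16.9% of all genes, and by 7 in B16, against 15.0%.

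The other effectors had larger fitted differences in B16 than in GL261, against the shared controls. Cdc42ep2 had 3.84 in GL261 and 4.82 in B16, Baiap2 3.17 and 3.82, Cdc42ep4 2.65 and 3.25, and Cdc42ep5 2.99 and 3.56. The tumors were then compared directly. In GL261 against B16, limma called 0 of the 10 genes, where 0.01% of all genes passed, and 0 had an unadjusted p under 0.05, where 5.5% of all genes did. Cdc42ep1 came nearest, with a log2 difference of -1.26 (95% interval -2.69 to 0.17, limma adjusted p = 0.973). All 3 B16 libraries were above all 3 GL261 libraries for Cdc42ep1, the only gene of the 10 whose groups did not overlap, against 6.66% of all genes that lay lower in GL261 without overlap. Cdc42ep3 had -1.07 (95% interval -2.55 to 0.42), an interval that holds differences of either sign.

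Other genes of the same pathway were examined from lists of small GTPases, Cdc42 and Rac effectors, RhoA effectors, GTPase regulators and septins, without the 10 genes. Of 86 genes tested, 2 passed the threshold as higher and 3 as lower in tumor-associated MLECs, which is 5.81% beside 3.93% of all genes. Their median log2 difference was -0.15, against 0.20 over all genes tested. Leaving out 1 library gave 1 to 4 calls, with 1 call without Control 1, B16 3 or GL261 1, 2 without B16 2 or GL261 2 and 3 without Control 2.

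Among 8 small GTPases tested, only Rhoc passed the threshold. Rhoc, a close relative of Rhoa known for cell migration, had 347, 305 and 217 FPKM in Control 1, 2 and 3, 606, 540 and 410 in GL261 1, 2 and 3, and 771.5, 916 and 696 in B16 1, 2 and 3. The groups did not overlap, and the log2 difference was 1.16 (SE 0.28, limma adjusted p = 0.0362). The call was lost when any single library other than GL261 3 was left out (limma adjusted p 0.0557 to 0.123). It was also lost with FPKM rescaled to an equal sum (0.93, limma adjusted p = 0.113), with quantile normalization (0.94, limma adjusted p = 0.0939), with no filter on low values (0.0738), with eBayes without a trend (0.193), with the replicate number as a block (0.0511) and with detected genes as a covariate (1.51, limma adjusted p = 0.220).

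Of 26 Cdc42 and Rac effectors tested, 1 was higher and 1 lower. Abi3, a relative of the WAVE complex subunits that drive branched actin, was listed at 0 in Control 1 and Control 3 and had 7.83 FPKM in Control 2. It had 25.1, 24.9 and 10.4 FPKM in GL261 1, 2 and 3, and 22.6, 42.8 and 28.3 in B16 1, 2 and 3. Every tumor-associated library was above the controls, with a log2 difference of 3.59 (SE 0.79, limma adjusted p = 0.0231). The call of Abi3 held without Control 2, B16 1 or GL261 3 and was lost without any other single library (limma adjusted p 0.0532 to 0.0776). The covariate gave a difference of 2.57 for Abi3 (limma adjusted p = 0.498).

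Pard6g, a polarity protein that binds GTP-loaded Cdc42, had 328, 190 and 95.2 FPKM in Control 1, 2 and 3. It had 21.5, 7.83 and 28.6 FPKM in GL261 1, 2 and 3, and 64.9, 67.7 and 39.9 in B16 1, 2 and 3. All tumor-associated libraries were below all controls, and Pard6g fell by 2.51 on the log2 scale (SE 0.64, limma adjusted p = 0.0466). The call of Pard6g held without Control 3, B16 1 or B16 2 and was lost without any other single library (limma adjusted p 0.0562 to 0.162). With the number of detected genes as a covariate the difference of Pard6g was -0.61 (limma adjusted p = 0.844).

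Of 34 regulators tested, 0 were higher and 2 lower. Arhgdib, a GDP dissociation inhibitor that holds small GTPases in the cytosol, had 620, 406 and 548.5 FPKM in Control 1, 2 and 3. It had 128.5, 175 and 124 FPKM in GL261 1, 2 and 3, and 182, 113 and 190 in B16 1, 2 and 3. The highest tumor-associated library was below the lowest control, and Arhgdib fell by 1.79 on the log2 scale (SE 0.28, limma adjusted p = 0.00338), a call that held when any 1 library was left out. The covariate left a difference of -1.62 for Arhgdib, and the call was lost (limma adjusted p = 0.213).

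Net1, an exchange factor for Rhoa, had 10.6, 7.13 and 2.94 FPKM in Control 1, 2 and 3, 0.0715 and 2.26 in GL261 1 and GL261 2, and was listed at 0 in the other 4 libraries. It fell by 2.55 on the log2 scale (SE 0.64, limma adjusted p = 0.0449), and the call held without Control 3 or GL261 2 and was lost without any other single library (limma adjusted p 0.0683 to 0.124). The covariate gave a difference of -2.99 for Net1 (limma adjusted p = 0.328). Of 9 RhoA effectors and 9 septins, the filaments that the Cdc42 effector proteins organize, limma called 0 in either direction. The median log2 difference was -0.16 for the RhoA effectors and -0.75 for the septins.

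**Figure D4:**
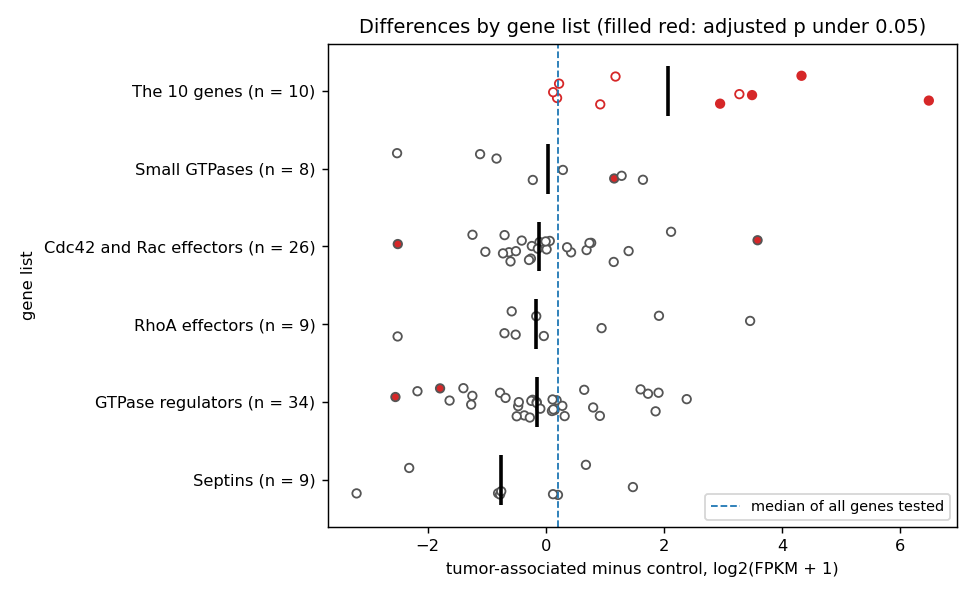
Log2 differences on the log2(FPKM + 1) scale, tumor-associated against control, of the 10 genes and of the genes in the 5 pathway lists, with filled red points past the threshold, black bars for the median of each list and a dashed line for the median of all genes tested (0.20). In the pathway lists Rhoc and Abi3 are the filled points above 0, and Pard6g, Arhgdib and Net1 those below.

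Markers of some other cell types also differed between the groups, in either direction, and their part in the results was not tested. Of 19 blood endothelial markers tested, 12 were higher and 0 lower in tumor-associated MLECs, and their FPKM summed to 2396 to 3228 in control MLECs, against 7834 to 10440 with GL261 and 6422 to 8844 with B16. Plvap, Ly6c1 and Cldn5 were the most abundant of that list, and Gja5 and Mfsd2a were listed at 0 in all 9 libraries. Cldn5 did not rise, with a log2 difference of -0.63 (limma adjusted p = 0.211). Kdr, with -0.34 (limma adjusted p = 0.755), was the only other tested marker of the list below 0. With each tumor tested separately, the calls were 10 higher and 1 lower for GL261, and 9 higher and 0 lower for B16. Of 11 lymphatic markers tested, 4 were lower. Leukocyte markers had 0 calls among 6 tested, sums of 158 to 310 in control and 51.2 to 719 in tumor-associated MLECs, and Ptprc, the CD45 gene of the sort, was listed at 0 throughout.

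Fibroblast and mural markers summed to 16.2 to 1230 FPKM in control and to 0.146 to 11.4 in tumor-associated MLECs, where the top of the control range was Control 1 with Tagln at 641 and Acta2 at 505. Of 2 markers tested, 1 was lower, Dcn, with 21.8, 44.9 and 15.7 FPKM in Control 1, 2 and 3 and at most 0.146 in any tumor-associated library (log2 difference -4.59, limma adjusted p = 0.0011). Without Control 1, the genes of the 10 that passed the threshold in tumor-associated MLECs were 2, Cdc42ep3 and Cdc42ep4. Melanoma markers summed to at most 0.258 FPKM in control, 4.07 with GL261 and 0.783 with B16, with Mitf, Mlana, Tyr and Tyrp1 listed at 0 in all 9 libraries. Glial markers summed to at most 0.739 FPKM in control MLECs, against 0.0374 to 13.6 with GL261 and 28.2 to 45.6 with B16. S100b made up 25.3 to 37.1 FPKM of the B16 sums, and Gfap, Slc1a3 and Sox2 were listed at 0 in all 9. Of 2 glial markers tested, 1 was higher for B16 against control, 0 for GL261 and 0 for both tumors together.

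The tested genes whose levels followed the 4 genes most closely over the 9 libraries are given as a description, with Pearson's r of log2(FPKM + 1). The points share library and detection depth. Pqlc1 (r = 0.990), B3gnt3 (r = 0.988) and Lrrc8c (r = 0.985) were nearest to Cdc42ep3, and all 3 were listed at 0 in the 3 control libraries. Bsdc1 (0.987), Smad7 (0.965) and Srpk1 (0.958) were nearest to Cdc42ep2. Map2k3 (0.996), Arf2 (0.967) and Grrp1 (0.960) were nearest to Cdc42ep4, and 1500011B03Rik (0.982), Chd7 (0.978) and Zfr (0.978) to Baiap2.

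The promoters of Cdc42ep3 and Baiap2 are shown because these genes were among the 4 that rose together and both windows hold several copies of 1 motif, which was seen before they were chosen. Each window runs from 250 bases before to 50 bases after the RefSeq start (GRCm38.p6 table), and an exact match placed it in mm9 at chr17:79754382-79754681 (minus strand, Cdc42ep3) and chr11:119804156-119804455 (plus strand, Baiap2). Capitals mark GGGCGG, the GC box read by SP and KLF factors, on either strand.
Cdc42ep3: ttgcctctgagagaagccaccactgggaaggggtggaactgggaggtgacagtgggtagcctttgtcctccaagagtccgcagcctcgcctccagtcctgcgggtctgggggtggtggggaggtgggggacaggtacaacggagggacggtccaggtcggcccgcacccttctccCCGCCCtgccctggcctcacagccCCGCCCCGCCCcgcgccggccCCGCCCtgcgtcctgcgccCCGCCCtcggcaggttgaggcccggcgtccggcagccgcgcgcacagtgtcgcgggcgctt
Baiap2: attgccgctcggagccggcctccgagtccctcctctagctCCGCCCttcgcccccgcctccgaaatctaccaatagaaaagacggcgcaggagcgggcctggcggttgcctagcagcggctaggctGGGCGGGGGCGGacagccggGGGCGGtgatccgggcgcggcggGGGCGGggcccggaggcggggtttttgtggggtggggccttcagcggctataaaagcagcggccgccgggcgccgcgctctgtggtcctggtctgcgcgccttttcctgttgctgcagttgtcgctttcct
Both windows hold 5 copies. Adjacent and overlapping copies were counted separately, and a pair of copies in the Cdc42ep3 window overlaps. The Cdc42ep1 window also holds 5 and that of Cdc42ep2 holds 3, whereas the windows of Cdc42ep4, which rose, and of Cdc42ep5 and Rhoj hold 0. The Cdc42 window holds 2 copies, and the Rhoa windows hold 0 and 4, although neither gene passed the test. Of 32851 promoters in the same table, 35.7% hold at least 1 copy, and the share that holds 5 was not computed. CpG pairs numbered 27 in the Cdc42ep3 window and 34 in that of Baiap2, where the quartiles of all promoters were 3, 7 and 20. The TEAD motif GGAATG, present in 14.7% of all promoters, was found in neither window, nor was the AP-1 motif TGANTCA, present in 7.81%. Windows of Cdc42ep1, Cdc42ep4, Cdc42ep5 and Rhoj did hold the TEAD motif. Promoters were found for 9 of the 10 genes, all but Rac1.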

How the data were processed

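RNA was measured in 9 libraries of 10 sorted cells each (Smart-seq2, 18 amplification cycles, read pairs of 150 bases). After trimming adapters, amplification primers and poly(A) stretches and dropping poor reads, the authors aligned to mm9 with TopHat2 2.0.12 and computed FPKM with Cufflinks 2.2.1 per the labels' processing notes, and deposited FPKM for each gene symbol and library. The annotation is not given in the sources used here. Their sums, 652636 to 888312 per library, show no common scaling, and detection is lower in the control libraries. Without counts, no count model was fitted.

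From the deposited FPKM, log2(FPKM + 1) was tested with limma 3.58.1 in R 4.3.3 (lmFit, eBayes with a trend) on genes at 1 FPKM or more in 3 or more libraries. P-values were adjusted by Benjamini-Hochberg over all 9955, and the threshold was 0.05. Tumor-associated against control used 2 groups, and the comparisons of single tumors used 3 groups with 1 estimate of the spread. The procedure was tested on simulated normal values, which does not show how it behaves with the zeros and the detection difference of these libraries. Positions and coding windows came from mm9 and GENCODE M1, promoters from RefSeq, and tables from Python 3.11.15 with pandas 2.3.3. The members and gene lists were chosen with earlier results of these data known. Genes named are the 10 members, the pathway genes past the threshold (at most 5 per list) and the 3 genes most correlated with each member past the threshold. For each cell type they are the most abundant markers (at most 3) and defining markers at 0, with some other tested markers. Deviations from the group means were not correlated between same-numbered libraries, which does not settle whether these were handled together. Replicates are pools of different mice. Alternatives were another pseudocount, scaling, filter or variance trend, the replicate number as a block, detected genes as a covariate, the mean of both tumors from the 3-group fit, the area under the ROC curve that the study used, and leaving out each library.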

Additional observations from a re-analysis of the deposited data

Results flagged for a closer look

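Baiap2 in GL261 3 stood apart from the other tumor-associated libraries. It had 8.16 FPKM there, against 29.5 to 54.7 in the other 5, and its gap to the nearest library was 0.667 of the whole range on the log2 scale, above the critical value of 0.625 for 6 libraries. Each of the 10 genes was examined this way in the tumor-associated group, and 1 was found, where chance flags about 1 in 20 groups. Without GL261 3 the log2 difference of Baiap2 was 3.84 (limma adjusted p = 0.0249).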

How the results depend on the processing

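Of the 10 genes, 4 passed the threshold in tumor-associated against control MLECs. The number was 1 with a pseudocount of 0.1, with FPKM rescaled to a sum of 1000000, with no filter on low values, with eBayes without a trend or with detected genes as a covariate, 2 with the mean of both tumors from the 3-group fit, 3 with quantile normalization, and 1 to 3 when each library was left out. A ROC power above 0.4, which has no p, was reached as higher by 8 of the 10, and by 31.0% of all genes tested. Cdc42ep3 was the gene called in all 18 limma alternatives (adjusted p 0.000115 to 0.0182), while Baiap2 was called in 5, Cdc42ep2 in 4 and Cdc42ep4 in 3. With detected genes as a covariate Cdc42ep3 was 7.04 higher (limma adjusted p = 0.0182), and among all genes the calls went from 391 to 11. No filter gave 254 calls among all genes, leaving out a library 245 to 444, and quantile normalization 383, of which 238 were higher, against 289 of 391.

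Pathway genes called went from 5 to 3 with a pseudocount of 0.1, 1 with no filter, 0 with the covariate, and 1 to 4 when a library was left out. For GL261 against control the 1 call was 0 with the covariate and 1 to 2 when a library was left out, and for B16 against control it was 1 to 2. In GL261 against B16, limma called 0 of the 10 genes under every alternative. The share of Cdc42ep3 in the family was 24.6% to 31.7% when a library was left out. The causes of these changes were not tested. Leaving out a library lowers the number of samples and removes the values of that library at once.

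The replicate number as a block gave 2 calls among the 10 genes and 3 among the pathway genes. The 9 same-numbered pairs had correlations of -0.0334 to 0.0443, and 0 were over 0.1. A pair with different numbers, B16 3 and GL261 1, reached 0.0522. With 3 libraries of 10 cells per group, such values cannot show whether same-numbered libraries were handled together.

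The sign of some differences turned, in each case in a comparison where the gene did not pass the threshold. In tumor-associated against control, rescaling gave -0.001 for Cdc42, -0.036 for Rac1 and -0.101 for Rhoa, quantile normalization -0.012, -0.071 and -0.043, and the covariate -0.075, -0.259 and -0.168. Rhoa ranged from -0.075 to 0.253 when a library was left out. In GL261 against control, rescaling gave -0.004, -0.058 and -0.061 for the same genes, quantile normalization -0.079 for Rac1, and the covariate -0.077, -0.451 and -0.023, with -0.696 for Cdc42ep1, which ranged from -0.084 to 0.924 when a library was left out. In B16 against control, rescaling gave -0.013 for Rac1 and -0.142 for Rhoa, quantile normalization -0.039, -0.064 and -0.133, and the covariate -0.075, -0.277 and -0.155, and Rhoa ranged from -0.281 to 0.158 when a library was left out. In GL261 against B16, rescaling gave -0.006 for Cdc42 and -0.045 for Rac1, quantile normalization -0.015 for Rac1, and the covariate -0.002 and -0.175. When a library was left out there, Cdc42 ranged from -0.067 to 0.275, Rac1 from -0.048 to 0.323, Cdc42ep5 from -1.445 to 0.143 and Baiap2 from -1.184 to 0.062. All 10 genes passed the filter, so that the permutation test set aside for genes outside it had no gene to test.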
